A study of Mus musculus with 28 samples.

Results

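The macrophages that carried Cd163, Lyve1, Folr2 or Timd4 transcripts were examined in an arteriovenous fistula (AVF) between carotid artery and jugular vein of the mouse, a surgical model in which the vein remodels under arterial flow. They were chosen cell by cell from 3 single-cell libraries. A barcode was kept with 200 to 6000 detected genes and at most 10% mitochondrial transcripts. A kept barcode was counted as a member when Lyz2, C1qa, C1qb, C1qc and Ctss made up at least 0.5% of its unique molecular identifiers (UMIs, counted transcripts), when Cd163, Lyve1, Folr2 and Timd4 made up at least 0.1%, and when the neutrophil pair S100a8 and S100a9 and the fibroblast set Col1a1, Col1a2, Col3a1 and Dcn each stayed under 1.5%. This rule found 654 members among 16893 kept barcodes. Of these, 369 came from the contralateral library, 149 from the early AVF library and 136 from the late AVF library.

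All mice, the source of the contralateral veins included, were male or female C57BL/6 animals with a 5/6 nephrectomy followed by AVF surgery, and their age was not given in the sources used here. Each single-cell library was made from a pool of enzymatically digested vessels of both sexes, 1 pool each of contralateral jugular veins and of outflow veins of early and late AVFs. Bulk RNA sequencing measured single vessels, with 7 contralateral veins (2 from males, 5 from females), 8 AVFs collected at about day 3 (early; 5 and 3), 5 at about day 10 (mid; 2 and 3) and 5 at about day 21 (late; 2 and 3). The labels give no day for the single-cell libraries, and by the study's methods their early and late AVFs were on average collected some days later than the bulk vessels of the same name, so the time points of the 2 kinds of data differ. With 1 single-cell library per condition there is no test between conditions in those data, and the intervals given cover counting error only. Because the members were picked by what they expressed in each library, a change within such cells and the arrival or loss of cells that pass the rule cannot be told apart.

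Macrophages that express LYVE1, FOLR2, CD163 and TIM-4 are found along blood vessels and in connective tissue of many organs, and many of them are seeded before birth and renew with little input from blood monocytes. CD163 takes up hemoglobin bound to haptoglobin, LYVE1 binds hyaluronan, FOLR2 is a folate receptor, and TIM-4, encoded by Timd4, binds phosphatidylserine on dying cells. Cells of this kind are commonly divided by their MHC class II, the complex that presents peptides to CD4 T cells, with LYVE1-high cells described as MHC class II-low. Origin and turnover were not measured here, so "resident" refers to the genes of the rule.

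All 6 measured MHC class II genes were at least 2-fold lower in the early members than in those of either other library, so the proximal promoters of 3 of them are shown. Transcription of these genes is known to require the co-activator CIITA, which is recruited by factors bound to a conserved X box, whose usual core holds GCAAC, and to a Y box, an inverted CCAAT element read as ATTGG. The sequences are the 100 bases before the annotated start, from RefSeq on GRCm38.p6, 5′ to 3′ in the direction of transcription, with capitals marking any core of the X box (GCAAC), of the Y box (ATTGG) or of the latter in the other orientation (CCAAT):
H2-Aa (chr17:34287824-34287923, minus strand): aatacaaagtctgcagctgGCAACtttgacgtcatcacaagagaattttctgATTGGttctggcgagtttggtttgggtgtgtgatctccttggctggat
H2-Eb1 (chr17:34305767-34305866, plus strand): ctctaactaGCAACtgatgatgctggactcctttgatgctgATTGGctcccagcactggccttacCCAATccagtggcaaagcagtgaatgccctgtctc
H2-DMb1 (chr17:34153091-34153190, plus strand): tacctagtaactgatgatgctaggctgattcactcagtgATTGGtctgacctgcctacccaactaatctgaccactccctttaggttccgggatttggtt

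In H2-Aa, GCAAC began at position −81 and ATTGG at −48 from the start, 33 bases apart. In H2-Eb1 they began at −91 and −59, 32 bases apart, with CCAAT at −35. H2-DMb1 had ATTGG at −61 and no GCAAC in this window. Across the 250 bases before the start of 32851 mouse promoters, GCAAC was present on either strand in 29.9%, ATTGG in 33.8% and both in 10.6%. GCAAC followed by ATTGG in gene orientation with starts 25 to 40 bases apart, a spacing chosen after these promoters had been read, was present in 119 (0.362%). The matches are a description of the letters and measure no binding.

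The members made up 5.84% of kept barcodes in the contralateral library (95% exact binomial interval 5.27 to 6.45), 3.13% in the early library (2.66 to 3.67) and 2.34% in the late library (1.96 to 2.76). As a share of all myeloid barcodes the values were 66.0% of 559, 7.10% of 2099 and 8.51% of 1599. Macrophages with C1q transcripts that did not reach the threshold of the rule genes, here called C1q macrophages, numbered 132, 1403 and 1253. Among these myeloid barcodes, the members were thus the main population in the contralateral library and a small part in both AVF libraries. Depth differed between the libraries, and the median kept barcode held 2751 UMIs in the contralateral library, 8951 in the early and 15425 in the late. Barcodes with at least 1000 UMIs were also thinned to that number, which gave shares of 6.94% of 5147, 7.01% of 4320 and 4.47% of 5432. The early share was then no longer below the contralateral share. At that depth, however, a single UMI of any rule gene met the threshold, so barcodes below it before thinning could pass. Members numbered 357, 303 and 243, against 369, 149 and 136 without thinning. Thinning thus changed the rule along with depth, and cannot show how far depth explains the lower early share.

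**Figure D1:**
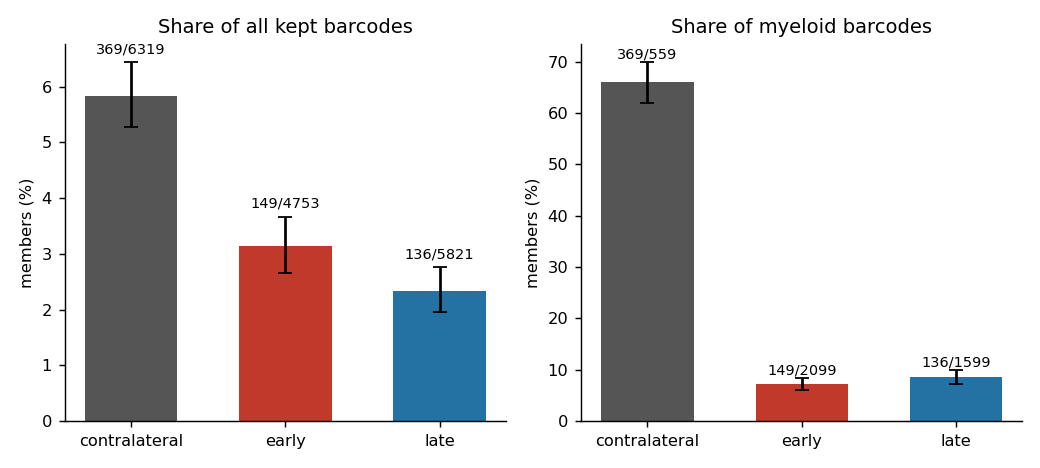
Bars show members as a percentage of kept barcodes (first panel, y axis in percent) in the contralateral, early and late single-cell libraries, with 95% exact binomial intervals, and as a percentage of myeloid barcodes in the second panel; the numbers above the bars are members over barcodes. Of kept barcodes the shares are 5.84%, 3.13% and 2.34%, and of myeloid barcodes 66.0%, 7.10% and 8.51%.

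The members themselves held a median of 5700, 13052 and 11864 UMIs and 2158, 3263 and 3017 genes in the contralateral, early and late libraries. The 8 T cell markers summed to 11.8, 12.2 and 5.66 counts per 1000000 UMIs (CPM, with the UMIs of all members of a library summed) in the members, against 3739, 4000 and 3841 CPM in T cells. The members thus held little T cell RNA in any library. Csf1r, the growth factor receptor on which macrophages depend, was found in 90.2%, 87.2% and 83.8% of them, at 1222, 884 and 872 CPM. Of 8 dendritic cell markers, Flt3, Xcr1 and Itgae were at 0 in every library and Clec9a at 0 to 0.395 CPM, whereas Cd209a (338, 51.4 and 29.5 CPM) and Siglech carried most of their sum. Of 7 neutrophil markers Ly6g was at 0 in every library, whereas Mmp9 was at 724, 74.8 and 92.4 CPM. Mmp9 was detected in 82.7% of contralateral members. S100a8 and S100a9, also on that list, were limited by the rule itself. Globin and other erythroid transcripts came to 13719 CPM in the contralateral members, 395 in the early and 5.03 in the late, beside 119558, 11646 and 249.8 CPM in all other barcodes of the same libraries, and their part in the differences below was not tested. Libraries shared 14 to 19 barcodes, none of which was a member in both.

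The genes that chose the members are given as a description. Cd163 stood at 1184 CPM in the contralateral members, 579 in the early and 358 in the late, and was detected in 84.0%, 61.1% and 40.4% of them. Lyve1 stood at 648, 352 and 422 CPM. Folr2 was nearly level, at 1031, 940 and 1004 CPM, and was the most widely detected of the 4 in each library (88.9%, 95.3% and 93.4% of members). Timd4 showed the widest gap, with 158 CPM in the contralateral members, 6.61 in the early and 17.6 in the late. It was detected in 185 of 369 contralateral members but in 5 of 149 early and 7 of 136 late members, although the AVF members held more UMIs per cell. T cells of the same libraries, with median depths of 4616, 5577 and 6571.5 UMIs, held a Cd163 transcript in 3.41%, 0.813% and 0.239% of barcodes. A Timd4 transcript was found in 1 of 205 contralateral T cells, in 0 of 123 early T cells, which allows a share of up to 2.44%, and in 0 of 418 late T cells, which allows up to 0.718%.

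The combination of rule genes within a cell differed as well. All 4 were found together in 125 contralateral members (33.9%), 3 early members and 6 late members. Folr2 was the sole rule gene in 8, 29 and 26 members, and Lyve1 with Folr2 but without Cd163 and Timd4 was the most frequent combination in the late library (50 members, 36.8%). In the early library the most frequent was Cd163 with Lyve1 and Folr2 (54 members, 36.2%). AVF members also lay closer to the threshold: their median share of rule-gene UMIs was 0.163% and 0.146%, against 0.271% in contralateral members, and 103 of 149 early and 106 of 136 late members were under 0.2%, against 116 of 369 contralateral ones. Just inside the threshold, between 0.1% and 0.12%, lay 16, 30 and 33 members, and just outside it, between 0.08% and 0.1%, lay 19, 47 and 47 barcodes.

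**Figure D2:**
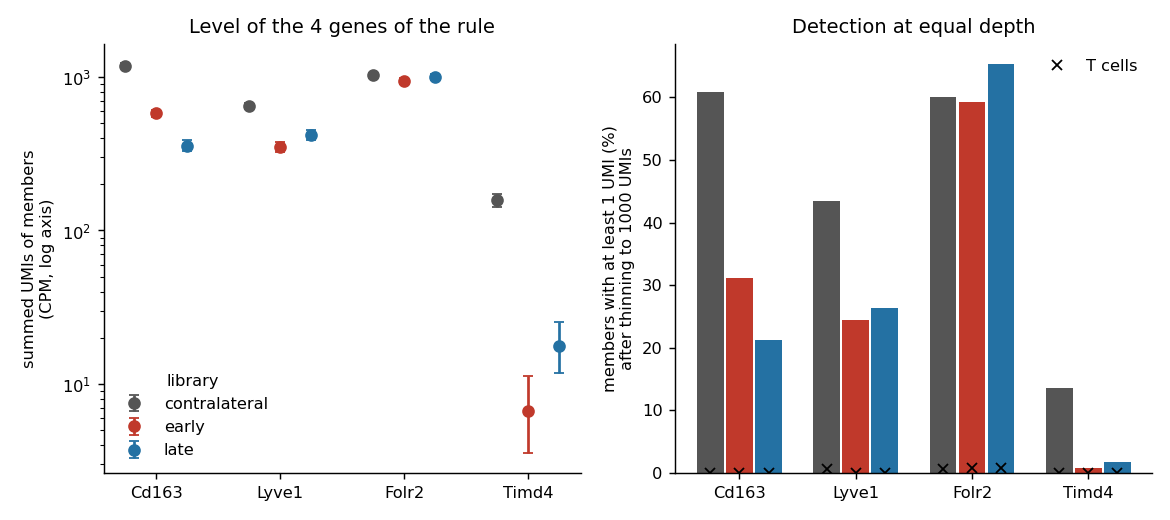
The first panel plots Cd163, Lyve1, Folr2 and Timd4 in the summed members (CPM, logarithmic axis, 95% counting intervals) and the second the percentage of members with at least 1 UMI after thinning to 1000 UMIs, with T cells as crosses, for the 3 single-cell libraries. Folr2 is nearly level (1031, 940 and 1004 CPM), whereas Timd4 is found in 13.5% of thinned contralateral members and in 0.741% and 1.69% of thinned early and late members.

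The members were next set beside the C1q macrophages of the same library. Among 1215 genes measured in all 3 libraries, 40 (3.29%) were at least 2-fold higher in the members in each library and 22 (1.81%) at least 2-fold lower. These counts are descriptive because the members were picked on related genes. The widest gap was in Cd209f, a C-type lectin of the DC-SIGN family, with a median ratio of 22.6: 826 against 188 CPM in the contralateral library, 408 against 3.49 in the early and 121 against 5.34 in the late. Next came Ccl24, an eosinophil-attracting chemokine (7.98-fold), Ednrb, the endothelin receptor B (6.79-fold), the galactose-binding lectin Clec10a (6.03-fold) and the carbonyl reductase Cbr2 (5.89-fold). The chemokine Ccl8 (4.91-fold), Ltc4s, which makes leukotriene C4 (4.61-fold), the neonatal Fc receptor Fcgrt (4.11-fold), the coagulation factor XIII subunit F13a1 (3.78-fold) and Gas6, a ligand of the TAM receptors on phagocytes (3.39-fold), were also higher in every library. The complement gene C4b belonged to the same set (3.71-fold).

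On the other side, the list of inflammatory mediators summed to 892, 3053 and 1943 CPM in the contralateral, early and late members and to 2674, 6826 and 5953 CPM in the C1q macrophages. Il1b, the precursor of interleukin 1β, was 44.7-fold lower at the median, with 3.95 against 178 CPM in the contralateral library, 135 against 1491 in the early and 24.5 against 1095 in the late. The elastase Mmp12 was 25.5-fold lower, the matricellular gene Thbs1 11.5-fold, the prostaglandin synthase Ptgs2 7.83-fold and the inflammasome sensor Nlrp3 4.35-fold. Cd14, part of the endotoxin receptor, was 3.13-fold lower. Saa3, an acute-phase gene of the same list, stood the other way in the early library, at 966 CPM in members against 241 in C1q macrophages. In the late library it was at 63.5 against 39.6 CPM, but 1 cell gave 68.3% of the UMIs of the late members.

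The share of a gene's transcripts that came from the members was taken in each library. Cd163, Folr2 and Lyve1 belong to the rule, so their shares are set in part by it. The members held 83.1%, 68.7% and 71.2% of all Cd163 UMIs in the contralateral, early and late libraries, and 83.3%, 89.4% and 61.3% of those of Cd209f. They held 88.8% of Folr2 UMIs in the contralateral library but 37.9% and 41.1% in the AVF libraries. For Mrc1, the mannose receptor, the shares were 79.7%, 19.4% and 15.7%, and for F13a1 80.8%, 23.5% and 29.7%. Lyve1 UMIs came mostly from the members in the contralateral (71.9%) and early (74.2%) libraries but not in the late library (31.9%). Cd163 and Cd209f transcripts thus sat mostly in the members in each library, whereas Folr2, Mrc1 and F13a1 transcripts of the AVF libraries were mostly found outside them.

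The members were then compared between libraries, for genes at 100 CPM or more in at least 1 of the libraries compared. Between the early and contralateral members 407 of 1864 genes differed 2-fold or more (21.8%; 10.1% higher and 11.7% lower in the early members). Between the late and contralateral members 241 of 1731 did (13.9%; 4.85% higher and 9.07% lower), and between the late and early members 152 of 1597 (9.52%; 5.07% higher and 4.45% lower). The median log2 ratio of all these genes was −0.08, −0.21 and −0.21.

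A list of 32 genes associated with resident macrophages, the rule genes included, was drawn up with earlier results of these data known. Of its 26 genes measured in the early comparison, 8 were at least 2-fold lower in the early members and 1 was higher (median log2 ratio −0.71). The lower genes were mainly lectins. Mgl2, a galactose-binding lectin close to Clec10a, was at 1058 CPM in the contralateral members, 38.6 in the early and 650 in the late, and was detected in 90.2%, 14.1% and 73.5% of them. Its contralateral level was 27.4-fold the early level (counting interval 21.8 to 34.9). Clec10a was at 1021, 382 and 460 CPM.

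The Cd209 family stayed low into the late library. Cd209d was at 502 CPM in the contralateral members and at 85.4 and 90.5 in the early and late members, Cd209g at 350, 182 and 61.6, and Cd209b at 243, 70.2 and 11.3. Cd209f was found in 68.0% of contralateral, 16.8% of early and 9.56% of late members. Members of this family resemble each other in sequence, and reads shared among them could have been divided or dropped by the counting. In the late library these transcripts came from very few cells, with 1 cell giving 25.5% of Cd209f, 46.9% of Cd209g and 35.4% of Cd209d UMIs.

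Of the other resident genes, Ccl24, Fgfr1 and Colec12 were also at least 2-fold lower in the early than in the contralateral members. Maf, Ccl24 and Colec12 were so in the late members. Several others differed little. Cbr2 was at 711, 710 and 553 CPM, Fcgrt at 566, 664 and 481, and Ltc4s at 187, 244 and 211. Mrc1 was at 3215, 2035 and 2043 CPM, F13a1 at 2648, 1571 and 1824 and Selenop, the plasma selenoprotein, at 5774, 4920 and 3883, all less than 2-fold apart. The exception upward was Wfdc17, a small secreted protein of the whey acidic protein family, at 807, 4644 and 1695 CPM. Its level in C1q macrophages also stood higher in the early library (274, 1432 and 555 CPM).

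**Figure D3:**
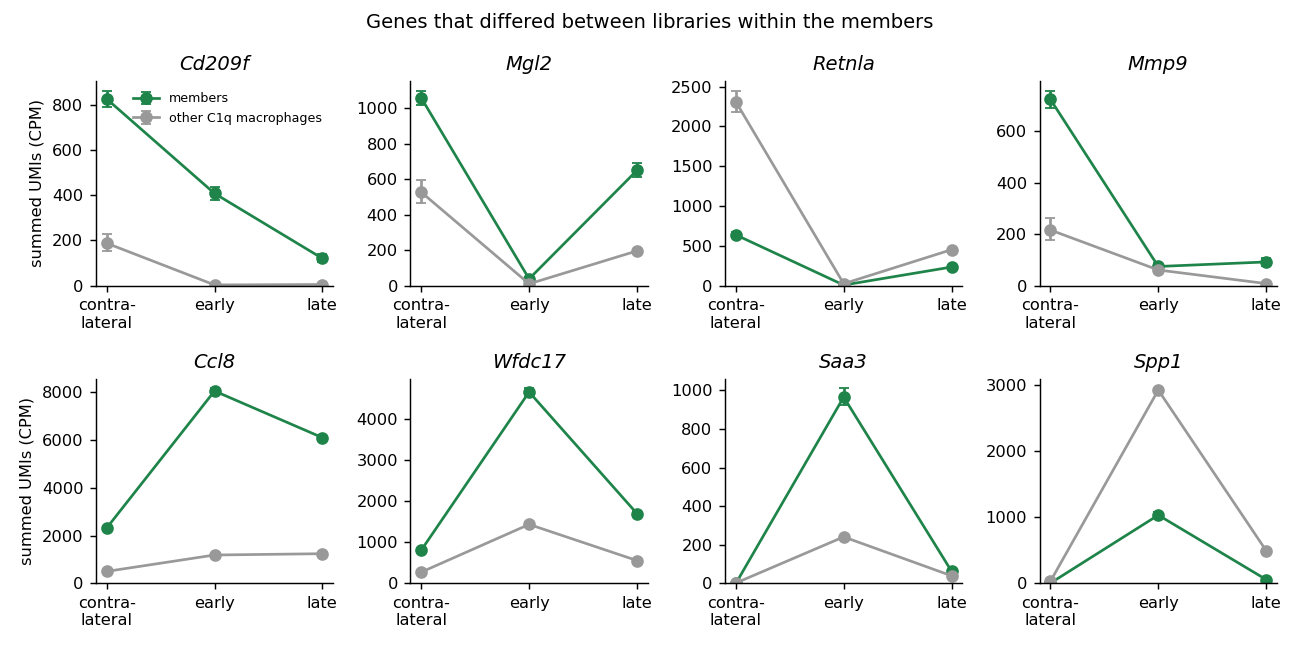
Levels of 8 genes in the summed members (green) and in the C1q macrophages (grey) of the contralateral, early and late single-cell libraries (CPM, linear axis, 95% counting intervals). In the members, Mgl2 is lowest in the early library (1058, 38.6 and 650 CPM), Cd209f in the late library (826, 408 and 121 CPM), and Spp1 is highest in the early library (4.34, 1033 and 59.1 CPM), where the C1q macrophages lie above it (2924 CPM).

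MHC class II transcripts were sparse in the early members and plentiful in the others. The 7 genes of the list summed to 15383 CPM in the contralateral members, 1766 in the early and 20879 in the late. H2-Aa, the α chain of I-A, whose promoter is shown above, was at 3669, 316 and 4368 CPM, an 11.6-fold difference between contralateral and early members (10.7 to 12.6). H2-Eb1, the β chain of I-E, was at 2553, 217 and 3311 CPM. All 6 measured genes were at least 2-fold lower in the early than in the contralateral members (median log2 ratio −3.05), and all 6 were higher in the late than in the early members (3.58). None of the 6 differed 2-fold between late and contralateral members (0.41).

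The gap was wider for the chains that form the peptide-binding complex than for the genes that load it. H2-Ab1, the β chain of I-A, was at 2240, 248 and 3231 CPM, and the invariant chain Cd74 at 6556, 867 and 9533. H2-DMa, a subunit of the peptide exchange factor, was at 200, 75.8 and 270 CPM and its partner H2-DMb1 at 121, 36.1 and 133. Ciita was too low to be counted as measured, at 45.0, 5.09 and 32.7 CPM. It was lowest in the same library as the genes it is known to activate.

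The low level was shared by most early members. With each cell of at least 1000 UMIs thinned to that number, 63.0% of early members held no MHC class II UMI, against 14.4% of contralateral members. At least 10 such UMIs were found in 160 of 348 contralateral members (46.0%; 40.7 to 51.4), 7 of 135 early members (5.19%; 2.11 to 10.4) and 64.4% of late members (55.1 to 73.0). A single cell gave 22.8% of the H2-Aa UMIs of the early members. T cells passed the same limit in at most 0.820% of cells per library and held 30.1, 240.2 and 93.8 CPM of H2-Aa. For the whole list their sums were 125, 1358 and 521 CPM, while the median T cell held 0, 180 and 437 CPM. The early sum lay above the 90th percentile of single early T cells (734 CPM).

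The C1q macrophages differed in the same direction and by less, with list sums of 30916, 7745 and 25605 CPM. In the barcodes that were not members the sum was 1760, 6125 and 7923 CPM. That last sum also depends on which cells it covers, since the myeloid barcodes among them numbered 190, 1950 and 1463. The remaining myeloid barcodes, neither members nor C1q macrophages, held 9843, 9222 and 22296 CPM. The lower level in the early library was thus seen in both macrophage groups, while the remaining myeloid barcodes were nearly level between the contralateral and early libraries.

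**Figure D4:**
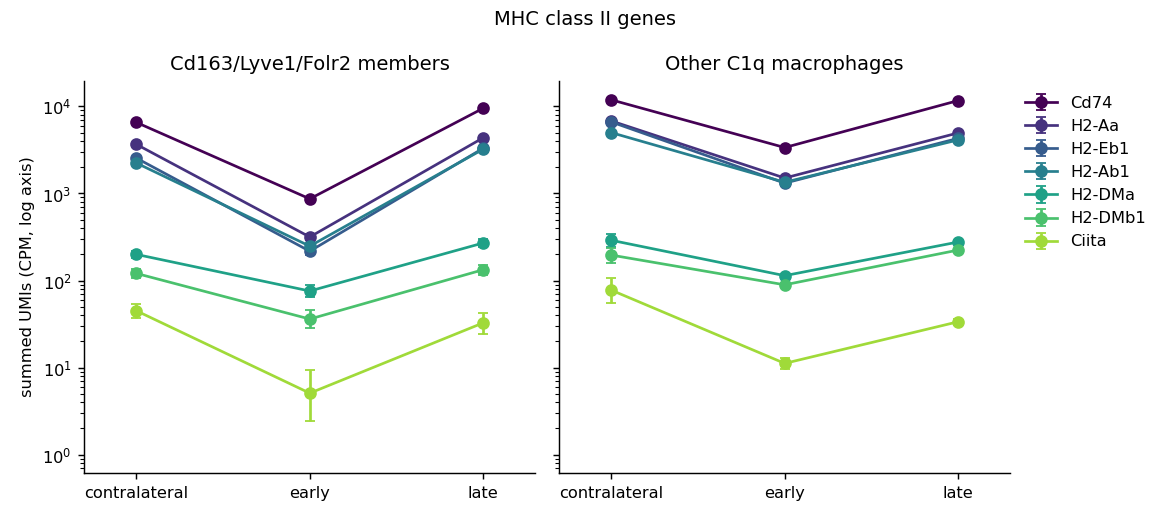
Levels of the 7 MHC class II genes (CPM, logarithmic axis, 95% counting intervals) in the members (first panel) and in the C1q macrophages (second panel) of the contralateral, early and late single-cell libraries. H2-Aa in the members is at 3669, 316 and 4368 CPM, and each gene is lowest in the early library in the members.

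The list of alternative activation and matrix remodeling had no common direction. Of its 6 measured genes, 2 were at least 2-fold higher in the early than in the contralateral members (Fn1 and Thbs1) and 2 were lower (Retnla and Mmp9), with a median log2 ratio of −0.19. Retnla, a secreted resistin-like protein of alternatively activated macrophages, was at 638, 8.14 and 234 CPM. It was higher in C1q macrophages than in members in each library (2308, 25.1 and 452 CPM), and 1 cell gave 81.3% of the early UMIs. The gelatinase Mmp9 was at 724, 74.8 and 92.4 CPM. Outside that list, the phospholipase Pla2g2d was at 306, 13.7 and 17.6 CPM and the sialic acid-binding lectin Siglech at 169, 3.56 and 13.2. Retnla and Mgl2 were higher again in the late than in the early members, by 28.8 and 16.8-fold.

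Genes of osteopontin-producing and lipid-handling macrophages formed the opposite pattern. Of 14 measured genes of this list, 9 were at least 2-fold higher in the early than in the contralateral members and 1, the fatty acid transporter Cd36, was lower (1021 against 225 CPM; median log2 ratio 1.51). Spp1, which encodes osteopontin, was at 4.34 CPM in the contralateral members, 1033 in the early and 59.1 in the late. It was detected in 1.63%, 86.6% and 30.1% of members. Fabp5, a fatty acid-binding protein, was at 21.3, 803 and 136 CPM and the lipid receptor Trem2 at 46.6, 443 and 106. Apoe, the apolipoprotein of macrophages, was at 10906, 24631 and 13801 CPM.

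Spp1 was more abundant in the C1q macrophages of the early library (2924 CPM) and was also found in its T cells (130 CPM, 59.3% of cells), in which a transcript of this level is taken here as background. After thinning to 1000 UMIs, 37.0% of early members, 53.9% of early C1q macrophages and 13.1% of early T cells held an Spp1 UMI. The early members thus stood above the T cells and below the C1q macrophages. Between late and early members, 5 of the 14 genes were at least 2-fold lower, Spp1, Fabp5, Trem2, Lpl and Ctsl, and none was higher.

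Among inflammatory mediators, 6 of 9 measured genes were higher in the early members and none was lower (median log2 ratio 2.29). Saa3, an acute-phase apolipoprotein, had a UMI in 0 of 369 contralateral members, which allows a share of up to 0.813%, and stood at 966 CPM in the early and 63.5 in the late members, at least 816-fold higher in the early members when 3 UMIs are taken as the limit for the contralateral library. All other barcodes of the early library held 588 CPM of Saa3, and fibroblasts 1772. Clec4d, an activating C-type lectin, was at 17.0, 284 and 133 CPM. Il1b reached 135 CPM in the early members, of which 1 cell gave 30.5%, and stayed under the 1491 CPM of the early C1q macrophages.

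Chemokine transcripts were higher in the members of both AVF libraries. Of 14 measured, 4 were at least 2-fold higher in the early than in the contralateral members (Ccl6, Ccl8, Ccl9 and Cxcl1) and 7 in the late (Ccl3, Ccl4, Ccl6, Ccl8, Cxcl1, Cxcl2 and Cxcl10), while Ccl24 was lower in both. Ccl8, which attracts monocytes and lymphocytes and already marked the members, was at 2317, 8045 and 6095 CPM, against 503, 1188 and 1243 in C1q macrophages. Ccl6 was at 677, 3142 and 2047 CPM. The monocyte attractants Ccl2 (1906, 1962 and 2010 CPM) and Ccl7 (1568, 1899 and 1883 CPM) were nearly level. The chemokine list summed to 20294, 36760.5 and 42323 CPM in the members and to 2787, 21633 and 17638.5 CPM in all other barcodes. In C1q macrophages it summed to 32607, 30958 and 43386 CPM. Higher AVF sums were thus not particular to the members.

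Of 5 measured genes of blood monocytes, 4 were at least 2-fold higher in the early members (Plac8, S100a4, S100a6 and Fn1) and none was lower. The monocyte list summed to 547, 2189 and 1503 CPM in the members, below the 4943, 7537 and 6970 CPM of fibroblasts. The part of transcripts from other cells in these differences was not tested. S100a4 was at 28.8, 546 and 353 CPM, and Ccr2, the receptor for Ccl2, at 24.9, 65.6 and 144. Ly6c2, a marker of inflammatory monocytes, was at 0, 1.02 and 1.26 CPM. Of 6 measured scavenger receptors only Cd36 differed 2-fold in the early members, and of 9 genes of heme and iron handling the transporter Slc48a1 (28.4 and 166 CPM) and the biliverdin reductase Blvra (44.2 and 120.5 CPM) did. Hmox1, which breaks down heme, was at 3455, 2744 and 6329 CPM. The complement component C4b (408, 179 and 241 CPM) was lower in the early members. None of 6 measured growth factor genes, Igf1 among them (613, 334 and 393 CPM), differed 2-fold in the early members. Of 12 macrophage transcription factors, Id3 was higher (32.0, 169 and 245.7 CPM) and Tcf4 lower (583, 263 and 328 CPM) in the early members, and Maf, a regulator of resident macrophages, was at 2076, 1090 and 982 CPM. Transcripts of cell division reached at least 3 UMIs in 3.16%, 2.22% and 3.39% of thinned members, against 10.99%, 17.2% and 18.6% of thinned T cells.

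Late members held more heat shock transcripts than the members of the other libraries, and more interferon-stimulated transcripts when UMIs were summed. All 11 heat shock genes were at least 2-fold higher in the late than in the early members (median log2 ratio 1.71), and the list summed to 33641, 19396 and 67963 CPM. The same sum was also highest in the late library in all other barcodes (16964, 18497 and 40271 CPM) and in fibroblasts (15404, 24922 and 43262 CPM), but not in T cells (34417, 27957 and 29276 CPM). In C1q macrophages it was 35369, 16065 and 40661 CPM, which is also lowest in the early and highest in the late library. Of 8 measured interferon-stimulated genes, 4 were higher in the late than in the contralateral members, among them Rsad2, an antiviral enzyme, at 208, 245 and 1134 CPM. The interferon list summed to 1849, 2351 and 4078 CPM in the members and to 3229, 2293 and 4086 CPM in the C1q macrophages, so that the late level was nearly the same in both. The median member held 1139, 1513 and 1607 CPM of this list, and the 90th percentile was 2990, 5075 and 7105. In members with at least 2 of the rule genes the medians were 1173, 1485 and 1343 CPM. The typical late member was thus close to the early one. Cxcl10, an interferon-induced chemokine, was at 598, 888 and 2556 CPM. Other late differences, in Eln, Tnfaip6, Igkc and Fn1, were in genes that the remaining barcodes of the library held at higher levels than the members (1268, 1564, 4028 and 2486 CPM).

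The members also varied within a library. Of the contralateral members, the 81 without a Lyve1 UMI held 27606 CPM of MHC class II transcripts and the 288 with Lyve1 held 13420, and the 184 without Timd4 held 20409 against 11937 in the 185 with it. Those without the gene were the shallower cells, with a median of 2806 against 6462 UMIs for Lyve1 and 4231.5 against 7354 for Timd4, and the part of depth was not tested. In the AVF libraries the level of Cd209f was higher in the few members with Timd4 than in the others. The 5 early members with Timd4 held 3015 CPM of Cd209f and the other 144 held 311, though most early Cd209f UMIs lay in those 144. The 7 late members with Timd4 held 1362 CPM against 22.4 in the other 129. Cd209d was also higher in the late members with Timd4, with 1097 against 10.9 CPM, and Cd163 was at 1122 against 298 CPM. In the early library the 88 members with Lyve1 held less Spp1 than the 61 without it (779 against 1608 CPM), at median depths of 15113 and 5508 UMIs. These groups were formed from the cells' own values and were not tested.

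The bulk libraries gave replicate vessels in which the same genes could be tested. In whole vessels, fewer cells of a type and less RNA per cell cannot be told apart. A gene was called at an adjusted p under 0.01 and a change of at least 2-fold in edgeR's quasi-likelihood test over 12673 genes. Totals were between 20254200 and 67457500 counts, and the contralateral libraries detected fewer genes at 5 counts or more (9312 to 16477) than the early (15835 to 21004), mid (20564 to 21801) and late ones (19861 to 22272). Contralateral replicate 28 had the fewest. Of the 32 resident genes 31 were tested, all but Vsig4.

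In early AVFs, 6 of the 31 fell, which were Lyve1, Gas6, Cd209f, Cd209d, Cd209g and Mgl2, and 2 rose, Pf4 and Wfdc17; over all genes 6.45% were called lower and 6.17% higher. In mid AVFs 3 fell (Cd209f, Cd209d and Cd209g; 3.31% of all genes were called lower) and in late AVFs 2 (Cd209f and Cd209d; 2.85%). The median log2 change of the list was −0.40, −0.65 and −0.39, beside −0.01, −0.10 and −0.09 over all genes. Some of these genes were chosen with the single-cell values in view, and the direction of the list is thus not independent evidence. In the same early AVFs 9 of 12 general macrophage genes rose.

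Cd209f was the clearest case. Its level was 103 to 512 CPM in contralateral veins (median 238), 4.73 to 27.5 in early AVFs (median 15.1), 3.35, 5.71, 6.92, 9.13 and 13.4 CPM in mid AVFs and 16.2, 19.0, 19.2, 19.8 and 20.6 CPM in late AVFs. Every AVF lay below every contralateral vein, a separation that 2.36%, 4.69% and 4.28% of all genes showed downward at the 3 time points. The log2 change was −4.47 (SE 0.43, adjusted p 2.86e-08) in early, −5.25 (adjusted p 3.25e-07) in mid and −3.95 (SE 0.52, adjusted p 8.63e-06) in late AVFs by edgeR. For Cd209d the log2 changes were −5.78, −6.04 and −5.56 (adjusted p 9.65e-06, 2.41e-04 and 5.58e-04 by edgeR). Cd209g fell in early and mid AVFs (log2 changes −4.75 and −5.01, adjusted p 1.72e-04 and 0.00197 by edgeR), and its late value of −3.71 did not pass (adjusted p 0.0140 by edgeR).

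Mgl2 fell in early AVFs and rose from early to late AVFs. It was at 6.47 to 294 CPM in contralateral veins (median 143), 0.0809 to 27.2 in early AVFs and 91.0, 93.0, 93.7, 121 and 136 CPM in late AVFs. The early AVFs overlapped the contralateral veins only through contralateral replicate 28. The log2 change was −3.80 (SE 0.68, adjusted p 1.56e-04) in early AVFs, and late AVFs stood above early AVFs by 3.39 (SE 0.69, adjusted p 0.00403 by edgeR), with no overlap, which 7.09% of all genes showed upward. That last call was lost without early replicate 5 or late replicate 16, 17, 19 or 24 (adjusted p 0.0101 to 0.0158 by edgeR). The late difference from contralateral veins was −0.40 (95% interval −1.81 to 1.01, adjusted p 0.784 by edgeR). Retnla, which is not on the list, also fell early and rose from early to late AVFs, with log2 changes of −6.13, −4.30 and −2.69 from contralateral veins (adjusted p 2.32e-09, 9.83e-06 and 0.00120 by edgeR) and of 3.44 from early to late AVFs (adjusted p 2.52e-04). The members held 31.7%, 3.11% and 2.61% of Retnla UMIs in the single-cell libraries, so most of this RNA was not theirs. For Mgl2 they held 76.4% in the contralateral library but 13.7% in the early and 14.6% in the late. Most Mgl2 UMIs of the AVF libraries thus also lay outside the members.

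Of the 4 rule genes, only Lyve1 was called in whole vessels, and only in early AVFs. Lyve1 was at 35.0 to 276 CPM in contralateral veins (median 157), 11.6 to 119 in early AVFs (median 45.0), 38.9 to 81.5 in mid and 79.7 to 120 in late AVFs, and fell in early AVFs (log2 change −1.61, SE 0.39, adjusted p 0.00336 by edgeR). LYVE1 is also a marker of lymphatic endothelium, and Mmrn1, a gene of that endothelium, fell in the same vessels (log2 change −2.70, adjusted p 0.00893 by edgeR), 1 of 6 lymphatic genes to do so. Another gene of that list, Pdpn, rose in these vessels (log2 change 1.98, adjusted p 3.87e-04 by edgeR). The Mmrn1 call was lost in 16 of 25 fits that left out 1 library (adjusted p up to 0.0271 by edgeR), and its part in the Lyve1 result was not tested. The Lyve1 call was lost with upper-quartile scaling (adjusted p 0.0123), in a fit of those 2 groups alone (0.0303) and without early replicate 3 (0.0114). Cd163 had log2 changes of −0.48, −1.96 and −1.57, none of which passed (adjusted p 0.508, 0.0221 and 0.0662 by edgeR). Folr2 had a log2 change of 0.45 in early AVFs (95% interval −0.71 to 1.61, adjusted p 0.633 by edgeR).

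Timd4 was spread widely between contralateral veins, from 0 to 56.3 CPM with a median of 6.29. Early AVFs ranged from 0 to 1.58 CPM apart from replicate 7 at 43.3, mid AVFs from 0.863 to 1.59 and late AVFs from 1.21 to 1.83 apart from replicate 23 at 7.51. Its log2 changes of −1.69, −4.06 and −2.88 did not pass (adjusted p 0.377, 0.123 and 0.273 by edgeR). Early replicate 7 also had the highest Cd209d (9.21 CPM), Cd209f (27.5 CPM) and Cd209g (5.83 CPM) of its group.

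Calls of 3 further genes concerned genes that other cells supply. Gas6 fell by 2.28 (log2) in early AVFs (adjusted p 1.52e-04 by edgeR) and rose from early to late AVFs by 2.89 (adjusted p 5.42e-04), but the members held only 7.16%, 9.92% and 1.83% of its UMIs. Pf4, the platelet factor 4, rose by 3.41 in early AVFs (adjusted p 3.08e-04 by edgeR), and in the early single-cell library C1q macrophages held 72.4% and members 10.6% of its UMIs. Of 4 tested platelet genes, 1 was called in early AVFs, Gp9, which rose by 5.02 (adjusted p 0.00499 by edgeR). The Gp9 call was lost in a fit of those 2 groups alone (adjusted p 0.0387) and without early replicate 5 (0.0163). Wfdc17 rose by 2.24 (adjusted p 0.00130 by edgeR), and the members held 16.6% of its UMIs in the early library. The Wfdc17 call was lost in a fit of those 2 groups alone (adjusted p 0.0164). Pf4 and Wfdc17 fell from early to late AVFs by 3.80 and 3.01 (adjusted p 0.00372 and 0.00333), so that late and early AVFs differed in 4 of the 31 genes, beside 3.01% called over all genes. This count dropped to 1 without late replicate 16, 17, 19 or 24.

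The MHC class II genes gave no fall in the whole vessel. None of the 7 was called by edgeR in early, mid or late AVFs, 1, 5 and 6 of them passed an unadjusted p of 0.05, all upward, and DESeq2 called 1, 0 and 1. Their median log2 changes were 0.38, 1.05 and 1.07 in early, mid and late AVFs. H2-Aa ranged from 159 to 1259 CPM in contralateral veins and from 183 to 1477 in early AVFs. Set against C1q transcripts in the same vessel, the 4 rule genes came to 20.5 to 41.4 CPM per 100 CPM of C1qa, C1qb and C1qc in contralateral veins (median 27.8), 1.09 to 10.9 in early AVFs (median 3.95), 4.59 to 7.54 in mid and 8.04 to 12.1 in late AVFs. In this sum no AVF reached the lowest contralateral vein. Taken singly, Cd163 overlapped, at 1.23 to 15.4 in contralateral veins and 0.376 to 4.45 in early AVFs. Folr2 did too, at 0.0198 to 1.97 and 0.259 to 0.764. Lyve1 was at 8.21 to 40.2 in contralateral veins and reached 8.52 in late AVFs. H2-Aa per 100 CPM of C1q had medians of 59.4 in contralateral veins and 12.4, 54.5 and 58.2 in early, mid and late AVFs. Its early range of 4.95 to 48.1 overlapped the contralateral range of 25.3 to 71.7. The C1q level was itself higher in AVFs, with medians of 1117, 3283, 1716 and 1889 CPM, so each of these ratios is a description of both its parts.

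**Figure D5:**
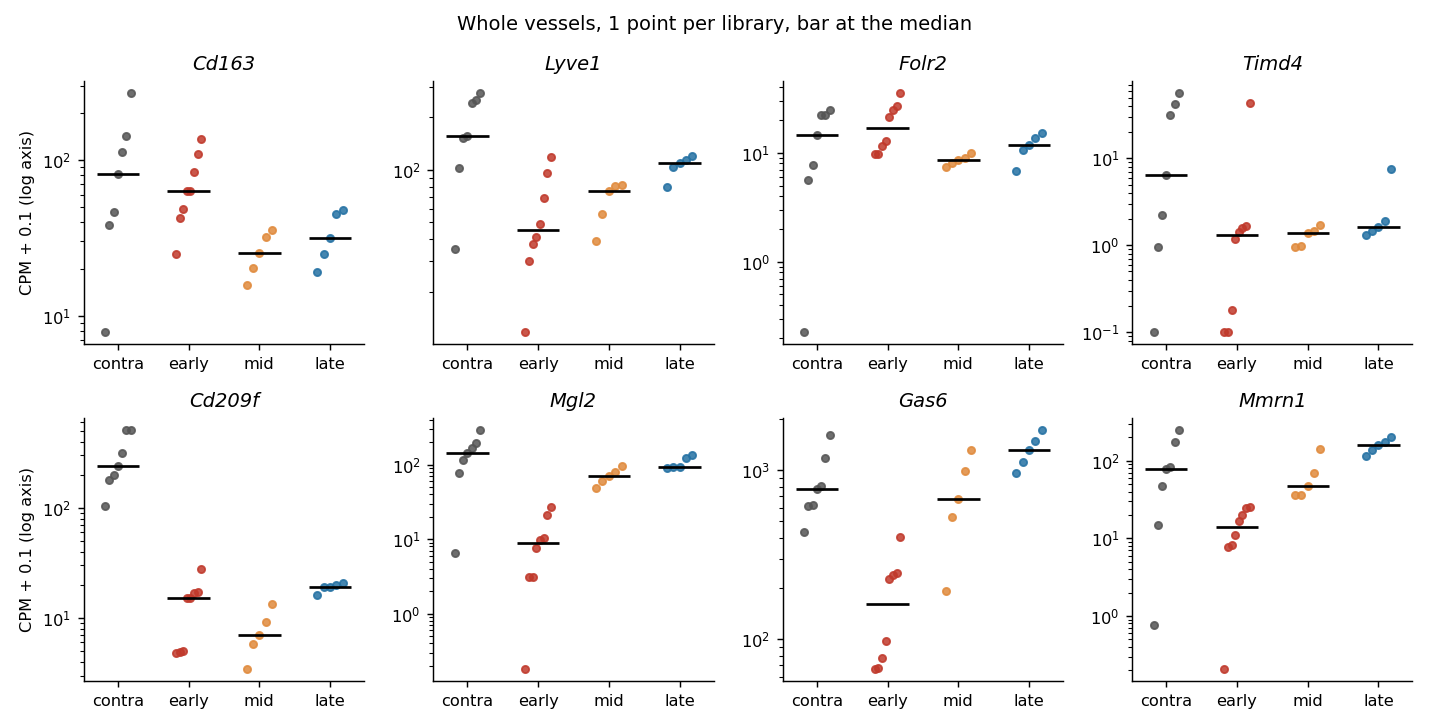
Levels of 8 genes in single vessels (CPM + 0.1, logarithmic axis), with 7 veins from the contralateral side, 8 AVFs of the early group and 5 each of the mid and late groups, each point 1 vessel and each bar the median of its group. Cd209f in every AVF (3.35 to 27.5 CPM) lies below every contralateral vein (103 to 512 CPM), and Mgl2 is low in early AVFs (0.0809 to 27.2 CPM) and at 91.0 to 136 CPM in late AVFs.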

How the data were processed

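For the single-cell libraries, the authors deposited filtered matrices of UMI counts per gene and barcode, whose headers name Cell Ranger 6.0.2. For bulk RNA, they deposited unnormalized read counts per gene for 25 vessels. The submitters' processing notes name STAR, mm10 and GRCm38, and no version of the bulk tools is known here. Members, gene lists and rules for named genes were chosen with earlier results of these data known.

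Members were found with the rule given above (Python 3.11.15, pandas 2.3.3). UMIs were summed over members per library and scaled to CPM. A gene was measured with at least 100 CPM in 1 of the compared libraries and at least 10 UMIs, and ratios of at least 2-fold were counted, without a test, since each condition had 1 library. A library with 0 UMIs was set to 3 UMIs. Genes named from each comparison were the 12 with the highest and the 12 with the lowest ratio, leaving out rule, mitochondrial, ribosomal, hemoglobin and sex-linked genes and unnamed models, and the 15 from the members against C1q macrophages, together with genes of the lists; the text gives a selection of these, grouped by role, and the order in which it gives them is not a ranking. No doublets were removed, because Scrublet (scanpy 1.11.5) marked 0, 2 and 120 kept barcodes and had therefore not worked in the contralateral and early libraries. No antibody sort or gate was stated.

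Bulk genes with a mean normalized count of at least 100 (12673 of 56980) were tested with edgeR 4.0.16 (R 4.3.3), TMM scaling and the quasi-likelihood test over all 4 groups, with Benjamini-Hochberg adjustment. The labels do not say that vessels of a group came from separate mice, so p-values measure the spread between these vessels. Alternatives included DESeq2 1.42.0. The scripts were tested on simulated data.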

Additional observations from a re-analysis of the deposited data

Results flagged for a closer look

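In 6 of 56 groups of vessels examined, 1 vessel lay far from the others of its group, where chance flags about 1 in 20. Timd4 in early AVF replicate 7 was 43.3 CPM, with the other 7 at 0 to 1.58 CPM. Cd209d in the same vessel was 9.21 CPM, with the others at 0 to 2.79 CPM. Timd4 in late AVF replicate 23 was 7.51 CPM, with the others at 1.21 to 1.83 CPM, and this vessel also had the highest level of the 4 rule genes per 100 CPM of C1q (12.1, against 8.04 to 8.30). Wfdc17 was 1335 CPM in contralateral replicate 35, with the others at 204.5 to 585.6 CPM, and 8419 CPM in early AVF replicate 5, with the others at 572.9 to 3833 CPM.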

How the results depend on the processing

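The share of members depended on the settings. In the contralateral, early and late libraries it was 4.00%, 0.968% and 0.515% with a threshold of 0.2% for the rule genes, 6.38%, 6.31% and 4.64% with 0.05%, 5.36%, 2.42% and 1.75% when at least 2 of the 4 genes were required, 6.94%, 7.01% and 4.47% after thinning to 1000 UMIs, and 66.0%, 7.10% and 8.51% of myeloid barcodes, while a mitochondrial limit of 5% gave 6.61% in the contralateral library. The number of genes past 2-fold was 673, 522 and 411 after thinning and 723, 456 and 275 with a limit of 50 CPM (early against contralateral, late against contralateral and late against early), and 412 for late against contralateral from mean per-cell CPM. All 111 named values past 2-fold kept their direction in the 6 alternatives, and 105 to 111 stayed past it. In bulk, the calls on the resident list in mid, late and late against early AVFs were 8, 5 and 7 by DESeq2 and 9, 5 and 8 at an adjusted p under 0.05. They were 7 and 4 in mid and late AVFs by the likelihood ratio test and 5 and 4 in a fit of the 2 groups alone. Leaving out 1 library gave 8 to 11 calls in early, 3 to 5 in mid and 2 to 3 in late AVFs, and 1 to 5 for late against early; without contralateral replicate 28 the mid count was 5. The uncalled mid change of Gas6 reversed to 0.0062 with upper-quartile scaling, 0.0094 without contralateral replicate 633 and 0.025 without mid replicate 15, and that of Mmrn1 to 0.022 without contralateral replicate 28; leaving out 1 library gave −0.59 to 0.025 and −0.96 to 0.022. The cause was not tested. No paired analysis was possible because no library number in the labels is shared by 2 groups. The AVF members number 149 and 136 cells, which limits the precision of their shares.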
